A study of Homo sapiens with 4 samples.

Results

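miR-224 and miR-452 are microRNAs cut from neighbouring hairpins inside GABRE, a gene on the X chromosome that encodes the epsilon subunit of the type A GABA receptor. The rows named hsa-miR-224 and hsa-miR-452, without a star, were taken from the deposited tables, which gave 2 of 1100 names. Both names were above 0 in all 4 libraries. The star names of the same hairpins, which denote the arm that is usually less abundant, were read beside them.

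Small RNA was sequenced from 2 human breast lines and from exosomes, small vesicles that cells release, purified from their cultures, with 1 library for each of the 4 groups. MDA-MB-231, a line from a metastatic breast cancer, was kept in DMEM with 10% fetal bovine serum. MCF-10A, an immortalised and non-tumorigenic mammary epithelial line, was kept in a mixture of DMEM and F12 with 5% horse serum, insulin, EGF, cholera toxin and hydrocortisone. Beyond the additives of the media, no group carried a genetic change or a drug treatment in the labels. Each line was kept in its own medium, so line and medium cannot be told apart. With 1 library per group there is no replicate error and no test, and every 95% interval below covers counting error only.

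A microRNA hairpin is cut from its primary transcript by Drosha and then by Dicer, and one strand of the resulting duplex is usually kept by an Argonaute protein. Bases 2 to 8 of that strand, the seed, pair with target messenger RNAs. Hairpins that lie close together in an intron can be made from 1 transcript, and miR-224 is known from liver cancer as a microRNA that is often raised in tumours.

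The sequences below show that the 2 neighbours are not copies of each other. They come from RefSeq (GRCh38.p14), where all 4 arms had an entry, with the seed in capitals in the mature sequences.
hsa-miR-224-5p: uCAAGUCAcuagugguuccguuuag
hsa-miR-224-3p: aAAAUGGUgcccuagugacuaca
hsa-miR-452-5p: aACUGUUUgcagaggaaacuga
hsa-miR-452-3p: cUCAUCUGcaaagaaguaagug
In the hairpins, the capitals mark the 2 mature arms.
MIR224 hairpin: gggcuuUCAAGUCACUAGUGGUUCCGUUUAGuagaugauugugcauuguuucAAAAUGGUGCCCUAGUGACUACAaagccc
MIR452 hairpin: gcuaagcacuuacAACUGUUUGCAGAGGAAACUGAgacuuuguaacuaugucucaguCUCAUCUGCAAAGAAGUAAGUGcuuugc

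The names hsa-miR-224 and hsa-miR-452 were matched to the 5p arms, and the star names to the 3p arms. The miRBase release behind the deposited names is not given in the sources used here, so the counted forms may start or end at other bases, and a start shifted by 1 base would shift the seed. The 5p arms, of 25 and 22 bases, carried different seeds, CAAGUCA for miR-224 and ACUGUUU for miR-452. Their longest shared run was GUUU, of 4 bases. Among 2370 mature human names in the RefSeq table, 0 others had the seed of hsa-miR-224-5p, and 2 others, hsa-miR-4676-3p and hsa-miR-892c-3p, had that of hsa-miR-452-5p. Neither of those was among the deposited names.

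In GENCODE release 29 (GRCh38), GABRE spans chrX:151953124-151974680 on the minus strand. The MIR452 hairpin, 85 bases long, lies at chrX:151959628-151959712, and the MIR224 hairpin, 81 bases long, at chrX:151958578-151958658, both on the same strand as the gene. They start 14968 and 16022 bases from the GABRE start, with 969 bases between them. Both lie in intron 6 of GABRE-201, a protein-coding transcript of 9 exons, and within exon 1 of the retained-intron transcript GABRE-209. In GABRE-203, a transcript annotated for nonsense-mediated decay, they lie in different introns, MIR452 in intron 6 and MIR224 in intron 7. MIR224 also overlaps in part exon 3 of a further retained-intron transcript, GABRE-207. The submitters' processing notes name hg18, and these positions were looked up by gene name and not carried over from that build.

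**Figure D1:**
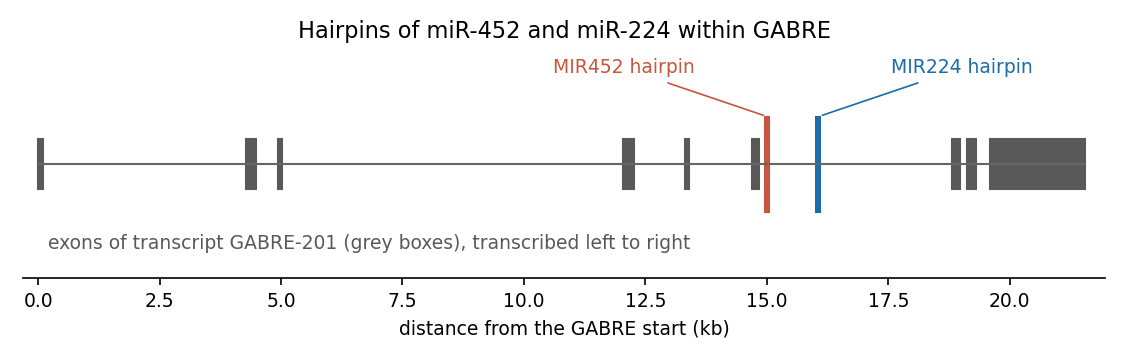
Map of GABRE drawn 5′ to 3′ as distance from its start in kb, with the 9 exons of transcript GABRE-201 as grey boxes. The hairpins of miR-452 (red) and miR-224 (blue) sit in the same intron of this transcript, 969 bases apart.

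For MDA-MB-231, depth was 1532849 reads (exosomes) and 7344454 reads (cells), and for MCF-10A 1254536 reads (exosomes) and 10937013 reads (the library labelled MCF-10A cell), as recovered from the steps of the deposited log2 values. Before the results, 1 library has to be set apart. Of 112 names listed as typical of other tissues (muscle, stroma and endothelium, neural tissue, blood, liver, gut with kidney and pancreas, and the placental 19q13 and the 14q32 clusters), 110 had at least 10 reads in the library labelled MCF-10A cell, and they held 52.0% of its reads. In MDA-MB-231 the same names held 2.89% of exosome reads and 0.145% of cell reads, with 42 and 19 of them at 10 reads or more. MCF-10A exosomes gave 0.159% and 18 names. The 8 epithelial markers (the miR-200 family with miR-141, miR-205, miR-203 and miR-31) summed to 442000 reads per 10000000 for MCF-10A exosomes. The library labelled MCF-10A cell had a sum of 100938, and exosomes and cells of MDA-MB-231 had 2318 and 4593. The epithelial label of MCF-10A therefore has its markers, while the cell library of that label also carries names of other tissues. Their part in the results that use it was not tested, and the levels, ranks and differences of the members are given also as shares of the reads outside those lists.

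Levels are reads per 10000000 miRNA reads. Since each read covers a whole microRNA, no length correction applies, but ligation favours some ends over others, so a ratio between names is a ratio of reads and not of molecules.

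As a share of all reads, miR-224 was far more abundant in MCF-10A exosomes than in the other libraries, which lay close together on that scale. Its level for MDA-MB-231 was 1745 reads per 10000000 among exosome reads (268 reads, 95% Wilson interval 1551 to 1971) and 1897 among cell reads (1393 reads, 1800 to 1999). MCF-10A exosomes reached 12854 (1613 reads, 12245 to 13500), and the library labelled MCF-10A cell 2119 (2318 reads, 2035 to 2207). From the highest level down, the order was MCF-10A exosomes, the library labelled MCF-10A cell, then cells and last exosomes of MDA-MB-231. The last neighbours in that order did not differ beyond counting error, with a ratio of 1.08 (0.951 to 1.24). The closeness depends on the scaling: outside the other-tissue lists the library labelled MCF-10A cell stood at 4420, with 1796 and 1901 for exosomes and cells of MDA-MB-231 and 12876 for MCF-10A exosomes, while upper-quartile scaling put it 1.26 below MDA-MB-231 cells on the log2 scale.

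As a share of all reads, miR-452 had the same high library and a narrower range. Its level for MDA-MB-231 was 4512 reads per 10000000 among exosome reads (692 reads, 4190 to 4864) and 4359 among cell reads (3201 reads, 4210 to 4512). MCF-10A exosomes reached 12502 (1568 reads, 11895 to 13132), and the library labelled MCF-10A cell 3928 (4296 reads, 3812 to 4047). Below MCF-10A exosomes came exosomes and then cells of MDA-MB-231, and last the library labelled MCF-10A cell. Exosomes and cells of MDA-MB-231 did not differ beyond counting error, with a ratio of 1.04 (0.953 to 1.12). Outside the other-tissue lists the order changed: the library labelled MCF-10A cell, at 8192, came above exosomes and cells of MDA-MB-231, at 4645 and 4368, and below MCF-10A exosomes, at 12524.

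By rank, miR-224 was 44th and miR-452 45th of the 436 names above 0 in MCF-10A exosomes. They were 115th and 78th of 508 for exosomes of MDA-MB-231 and 102nd and 78th of 566 for its cells. The library labelled MCF-10A cell had them at 163rd and 127th of 794, or 123rd and 100th of the 683 names outside the other-tissue lists. All 4 arms of the locus together took 0.255% of reads in MCF-10A exosomes. The share was 0.0631% for exosomes and 0.0631% for cells of MDA-MB-231, while the library labelled MCF-10A cell had 0.0641%. These 3 shares were nearly equal over all reads only: outside the other-tissue lists they were 0.0649%, 0.0632% and 0.134%, and MCF-10A exosomes had 0.256%.

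**Figure D2:**
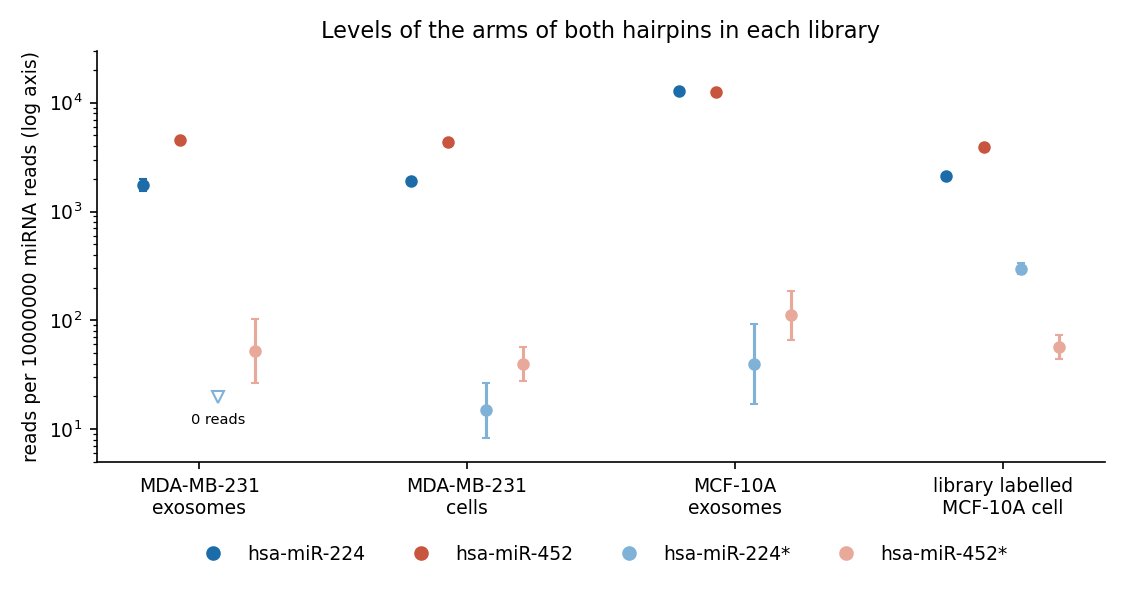
Reads per 10000000 miRNA reads on a log axis for both arms of each hairpin in the 4 libraries, with 95% Wilson intervals for counting error (bars shorter than the points are hidden). The open triangle marks 3 reads, the limit that a count of 0 allows. Both members are highest in MCF-10A exosomes, at 12854 and 12502, and the star arm of miR-224 is highest in the library labelled MCF-10A cell, at 299.

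The exosome comparison asks which microRNAs take different shares of the exosome reads of the cancer line and the epithelial line. The amounts that either line releases were not measured. Here MDA-MB-231 had 7.35-fold less miR-224 than MCF-10A (interval 6.46 to 8.40), a log2 difference of -2.88. miR-452 was 2.77-fold lower (2.53 to 3.03), a log2 difference of -1.47. A 4-fold size was used as the mark of a large difference, and 1 of the 2 members, miR-224, passed it, as did 48.3% of the 505 names compared, those that reached 10 reads per 10000000 on either side. A change of this size was therefore common, and the median difference of all names was 0.59. The entry limit lies below the worth of 3 reads, which is 19.6 reads per 10000000 in MDA-MB-231 exosomes and 23.9 in MCF-10A exosomes. On recovered reads without a pseudocount, where names absent from either library drop out, 117 of 374 names passed. Of the 505 names on the deposited scale, 14.1% had a lower difference than miR-224, and 22.2% a lower one than miR-452. Both members kept their direction under every scaling tried, and scaling to the upper quartile of names detected in both libraries moved the differences to -3.61 and -2.20, the second of which passes 4-fold.

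As shares of all reads, the members hardly differed between MDA-MB-231 cells and the library labelled MCF-10A cell. The log2 difference of MDA-MB-231 cells from the library labelled MCF-10A cell was -0.16 for miR-224 (1.12-fold lower, log2 interval -0.26 to -0.06) and 0.15 for miR-452 (1.11-fold higher, 0.08 to 0.22). Neither passed 4-fold, where 71.7% of 665 names did and the median name was at -2.83. Both background values count names absent from either library. On recovered reads without a pseudocount, where such names drop out, 282 of 467 passed. Direction and size depend on the scaling. For miR-224 the sign turned upward under 4 scalings, to between 0.25 and 1.26, and miR-452 reached 0.56 to 1.57 under the same 4. As a share of the reads outside the other-tissue lists, miR-452 turned downward, to -0.91, and miR-224 was at -1.22. Those shares keep every read of the members, whatever its source.

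Within MDA-MB-231, exosomes and cells held similar shares of both. The log2 difference of exosomes from cells was -0.12 for miR-224 (-0.31 to 0.07) and 0.05 for miR-452 (-0.07 to 0.17), and the latter turned to between -0.39 and -0.01 under 3 scalings. Neither passed 4-fold, where 35.7% of 499 names did. The median of all names was -0.09. On the deposited scale, 5.61% of names lay closer to 0 than miR-224 and 1.60% closer than miR-452. These places depend on the scaling, and names with few reads can lie far from 0 by counting error alone.

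Within MCF-10A, both were higher in exosomes than in the library labelled MCF-10A cell. miR-224 was 6.07-fold higher (log2 2.60, interval 2.51 to 2.69) and miR-452 3.18-fold higher (log2 1.67, interval 1.59 to 1.75). 1 of the 2 members passed 4-fold, as did 72.6% of 661 names, of which 102 were higher and 378 lower in exosomes. The median name was at -3.27, so the members were on the side of the fewer names. That median counts names absent from either library, and the library labelled MCF-10A cell is the deeper. On recovered reads without a pseudocount, where such names drop out, 94 of 410 names were past 4-fold higher and 137 lower. As shares of the reads outside the other-tissue lists, the differences fell to 1.54 for miR-224, below 4-fold, and 0.61 for miR-452. Under the other scalings both were larger, up to 4.24 and 3.31 with upper-quartile scaling, and miR-452 passed 4-fold under 3 of them.

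A comparison that leaves that library out sets MDA-MB-231 cells against MCF-10A exosomes, in which line and fraction differ together and cannot be told apart. The MDA-MB-231 cells had 6.78-fold less miR-224 (6.31 to 7.29, log2 -2.76) and 2.87-fold less miR-452 (2.70 to 3.05, log2 -1.52). 1 of the 2 members passed 4-fold, as did 45.9% of 482 names. These values stand near those of the exosome comparison, with which they share the MCF-10A exosome library.

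**Figure D3:**
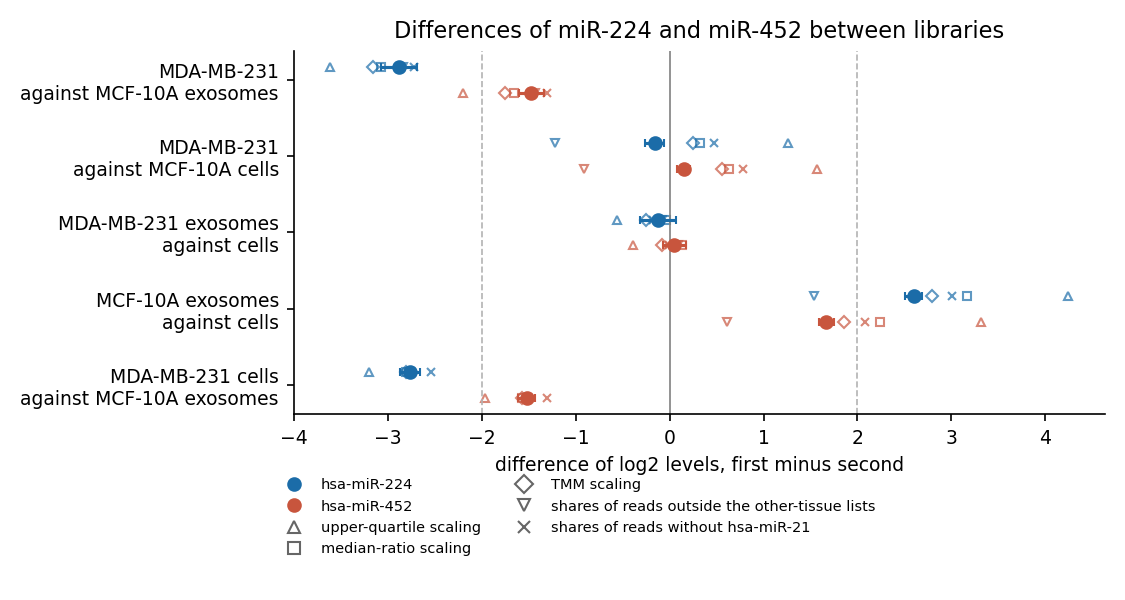
Difference of log2 levels, first library minus second, of miR-224 (blue) and miR-452 (red) in each comparison. Filled points carry 95% counting intervals, open symbols give other scalings and dashed lines mark 4-fold. The points of both members lie left of 0 under every scaling against MCF-10A exosomes, while those between cells lie on both sides of 0 (-1.22 to 1.26 for miR-224 and -0.91 to 1.57 for miR-452), as do those of miR-452 between exosomes and cells of MDA-MB-231 (-0.39 to 0.13).

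Both members come from 1 host gene, so the balance between them was followed as well; it depends on neither depth nor scaling. For each read of miR-452, MDA-MB-231 had 0.387 reads of miR-224 among exosome reads (0.335 to 0.447) and 0.435 among cell reads (0.408 to 0.464). MCF-10A exosomes had 1.03, a log2 ratio of 0.04 (-0.06 to 0.14), and the library labelled MCF-10A cell 0.540 (0.513 to 0.568). miR-452 was thus the more abundant in 3 libraries, and in MCF-10A exosomes the reads of both were equal within counting error. Between the exosome libraries the ratio differed 2.66-fold, a log2 change of -1.41 (-1.64 to -1.18), and within MCF-10A 1.91-fold (log2 0.93, 0.81 to 1.06). Between MDA-MB-231 cells and the library labelled MCF-10A cell the change was smaller, -0.31, with an interval that excludes 0 (-0.43 to -0.19). Between exosomes and cells of MDA-MB-231 the change, -0.17, had an interval that includes 0 (-0.40 to 0.06).

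The star arms of the hairpins differed most in the library labelled MCF-10A cell. MDA-MB-231 gave miR-224* 0 exosome reads and 11 cell reads, MCF-10A exosomes gave 5, and the library labelled MCF-10A cell 327. As a share of the reads of both arms of its hairpin, in that order, this was 0 of 268 (0% to 1.41%), then 0.783% (0.438 to 1.40), 0.309% (0.132 to 0.721) and 12.4% (11.2 to 13.7). The last library stands far above the others, with intervals that do not overlap.

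miR-452* had 8, 29, 14 and 62 reads in the same order, or 1.14% (0.580 to 2.24), 0.898% (0.626 to 1.29), 0.885% (0.528 to 1.48) and 1.42% (1.11 to 1.82) of its hairpin. These intervals all overlap. Of the star reads of both hairpins, miR-224* made up 27.5% (16.1 to 42.8) in MDA-MB-231 cells and 26.3% (11.8 to 48.8) in MCF-10A exosomes. The library labelled MCF-10A cell gave 84.1% (80.1 to 87.4). The star arms thus stood in the opposite order there while the main arms did not.

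For a background, every name with a star partner and at least 200 reads of its own was taken, a limit set after the values were seen. The median star share for MDA-MB-231 was 0.571% over 64 such pairs (exosomes) and 2.39% over 78 (cells). MCF-10A exosomes gave 0.863% over 57, and the library labelled MCF-10A cell 1.39% over 122. In that last library 19 pairs had a higher star share than miR-224 and 102 a lower one, while miR-452 stood in the middle, with 60 higher and 61 lower. From MCF-10A exosomes to that library the ratio of star to main arm of miR-224 differed by 5.48 upward on the log2 scale, against a median of 0.53 over 57 pairs, 4 of which had a larger value. From MDA-MB-231 cells to that library the value was 4.07, against a median of -0.79 over 75 pairs, with 5 larger. The star of miR-224 is thus among the pairs that differ most in the library that also holds 52.0% of reads from other-tissue names, whose part in this was not tested.

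**Figure D4:**
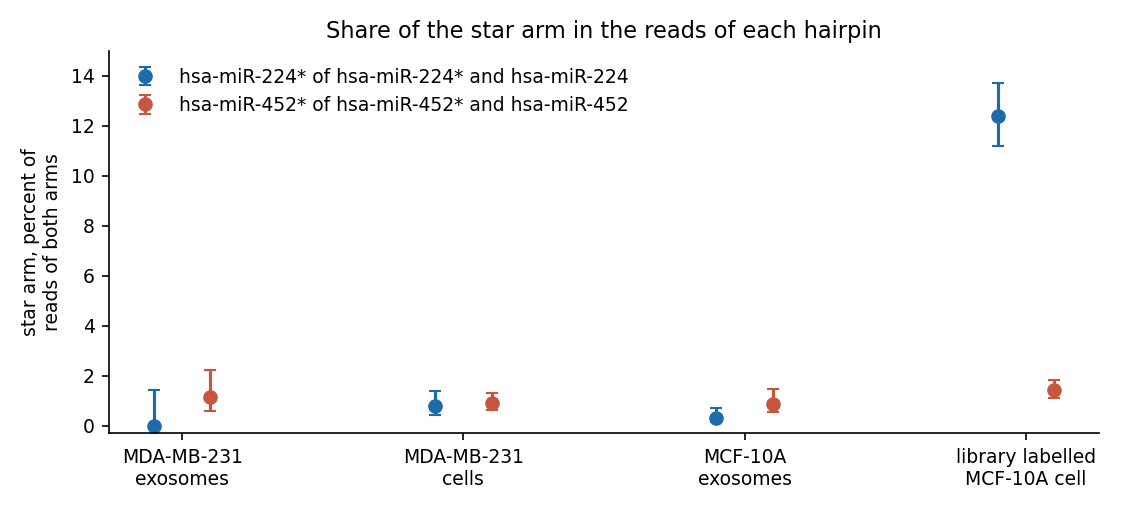
Star arm as a percent of the reads of both arms of each hairpin, by library, with 95% Wilson intervals for counting error. miR-452* (red) lies between 0.885% and 1.42% throughout, while miR-224* (blue) reaches 12.4% in the library labelled MCF-10A cell.

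Other neighbouring microRNAs gave a measure of how alike a pair from 1 place can be. For 28 listed pairs the gap between the log2 differences of the partners was taken, among those where some library of the comparison held 10 or more reads of both names. In the exosome comparison the gap of miR-224 and miR-452 was 1.41, the 18th smallest of 23, where the median was 0.69. The same gap was found for miR-105 and miR-767-5p, a pair with a count of 0. The smallest gaps were 0.05 for miR-17 and miR-20a, 0.09 for miR-191 and miR-425 and 0.13 for miR-96 and miR-182. The largest were 7.25 for miR-144 and miR-451, 2.05 for miR-424 and miR-503 and 1.77 for miR-143 and miR-145, a pair with a count of 0. The largest gap also rests on few reads, since miR-451 had 2 reads in MCF-10A exosomes. The GABRE pair was thus among the wider ones across exosomes, although both partners went the same way.

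In the comparisons of cells with cells and of exosomes with cells of 1 line, the pair was among the narrower ones. The gap was 0.31 between cells of the lines, the 3rd smallest of 28 pairs (median 1.81), and 0.17 between exosomes and cells of MDA-MB-231, the 3rd of 26 (median 0.72). It was 0.93 within MCF-10A, the 7th of 26 (median 2.27). Set against MCF-10A exosomes, cells of MDA-MB-231 gave 1.24, the 18th of 23 (median 0.83). The pair thus kept close in the comparisons within MDA-MB-231 and between cells, and parted where MCF-10A exosomes were compared with either MDA-MB-231 library. Between cells the gap was small, yet the ratio of the members differed beyond counting error, 1.24-fold. Within MCF-10A the pair was narrow by rank, yet that ratio differed 1.91-fold there. Ranks between cells and within MCF-10A rest on the widest median gaps, 1.81 and 2.27, in comparisons that use the library labelled MCF-10A cell.

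**Figure D5:**
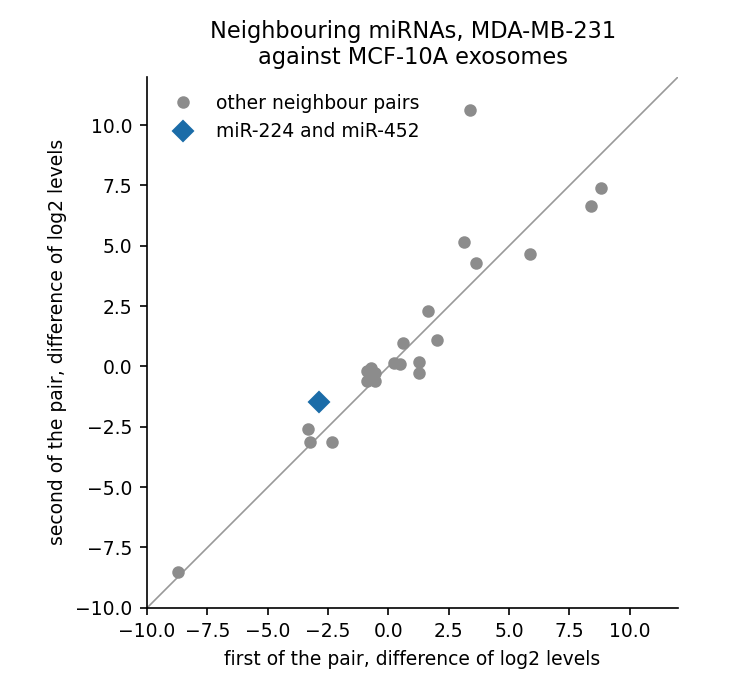
Log2 differences of MDA-MB-231 from MCF-10A exosomes for the partners of 23 neighbouring pairs, the first partner on the x axis and the second on the y axis, with the line of equal difference. miR-224 and miR-452 (blue diamond, -2.88 and -1.47) lie off the line by 1.41, where the median pair is off by 0.69.

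Another GABA receptor gene on the X chromosome, GABRA3, holds the hairpins of miR-105 and miR-767. Between the exosome libraries these went the other way from the GABRE members. For miR-105, MDA-MB-231 gave 69 exosome reads and 565 cell reads, MCF-10A exosomes gave 0 and the library labelled MCF-10A cell 20. Between the exosome libraries this is at least 18.8-fold more for the cancer line. For miR-767-5p the reads were 26, 542, 0 and 5, at least 7.09-fold more. These bounds set 3 reads in place of the 0. Of their other arms, miR-105* had 1, 33, 0 and 2 reads and miR-767-3p 1, 12, 0 and 0.

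Of 44 names listed from other X-linked clusters, 43 were in the tables, and 38 entered the exosome comparison. Past 4-fold, 9 were higher in MDA-MB-231 and 1 was lower, and 28 lay within, with a median log2 difference of 0.18. Over all 505 names of that comparison, 48.3% passed 4-fold, 148 higher and 96 lower, with a median of 0.59. The most abundant, miR-221 and miR-222, were at 1.28 and 0.18, miR-221* at 0.32 and miR-424 at 3.12. Against this list, of mixed direction, both GABRE members were lower in MDA-MB-231 exosomes.

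Names of like pattern were ranked by the root mean square difference of log2 levels after centring each name on its mean over the 4 libraries, among the 565 names that reached 50 reads per 10000000 somewhere. Nearest to miR-224 were miR-296-3p (0.41), miR-548d-5p (0.46), miR-1255a (0.50), miR-342-5p (0.52) and miR-452 (0.54). Nearest to miR-452 were miR-548d-5p (0.16), its own star arm miR-452* (0.29), miR-342-5p (0.36), miR-744* (0.41) and miR-92a (0.46), while miR-224 was 10th. Over the 3 libraries without the one labelled MCF-10A cell, 0 of the 5 nearest names of miR-224 and 3 of those of miR-452 were the same, and miR-452 was 25th for miR-224 and miR-224 53rd for miR-452, at 0.63. The distance between the neighbours thus changed little, from 0.54 to 0.63, while their ranks fell among the 401 names compared there. Scaling a library shifts every name alike and leaves these distances as they are. Several of the nearest names have few reads.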

How the data were processed

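The authors deposited 1 table per library with log2 values for 1100 miRNA names. Unlogged, less 1, each library sums to 9992361 to 10004141, so the deposited log2 values were read as log2(reads per 10000000 + 1). Low values are whole multiples of the worth of 1 read, from which depth and reads were recovered. Rounding resolved single reads for 286 to 334 names per library, and 100% of those held a whole number within it. Larger numbers are known to 0.347%. On simulated libraries the recovery returned 100% of low names. The 95% intervals held the true 4-fold ratio for 94.5% to 96.9% of changed names. They were computed there on the drawn counts and not on recovered ones, with counting error as the only spread. Novoalign, edgeR and hg18 are named, with no version or role, per the submitters' processing notes. RNAs between 17 and 52 nt were selected, per the labels' protocols. How exosomes were purified is not given in the sources used here.

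Differences are of the deposited log2 values, with pseudocount 1. Ratios of reads have exact conditional binomial 95% intervals, changes of the miR-224 to miR-452 ratio conditional odds-ratio intervals, and shares Wilson intervals. PCR reads without molecular identifiers are not independent molecules. A name entered where either library reached 10 reads per 10000000, and 4-fold was the mark. Scaling alternatives were upper quartile, median ratio, trimmed mean of M-values (the usual trims of 30% and 5%, computed here directly), and shares outside the other-tissue lists or without miR-21. The text names the members, their star arms, the GABRA3 names, up to 4 of the highest names per list, the 3 widest and 3 narrowest neighbour pairs and the 5 names of nearest pattern. The interval for the change of ratio, the star-share background and the levels outside the other-tissue lists were added after values were seen. The members and lists were chosen with earlier results of these data known. Python 3.11.15, numpy 2.4.6, pandas 2.3.3, scipy 1.17.1 and matplotlib 3.10.9 were used.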

Additional observations from a re-analysis of the deposited data

Results flagged for a closer look

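For miR-224 the log2 difference of exosomes from cells had opposite signs in the 2 lines, -0.12 in MDA-MB-231 and 2.60 in MCF-10A. The first has an interval that includes 0 (-0.31 to 0.07), so no change in the opposite direction was shown. For miR-452 the signs between the lines were opposite in the 2 fractions: the difference of MDA-MB-231 from MCF-10A was -1.47 in exosomes and 0.15 in cells. With 1 library per group neither difference between contrasts was tested, and each rests in part on the library labelled MCF-10A cell. The miR-452 value between cells turns to -0.91 outside the other-tissue lists.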

How the results depend on the processing

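No paired analysis was possible because each group has 1 library, so the groups share fewer than 2 replicate numbers. Leaving out a library leaves no value for the comparisons that use it. Of 70 recomputed differences of the members, 37 stayed within the counting interval, 33 left it, 8 changed sign and 5 crossed 4-fold. Removing the pseudocount or raising it to 10 moved none out of it. The 4 ratios of miR-224 to miR-452 stayed within theirs.

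For miR-224, upper-quartile scaling gave -3.61 in exosomes, 1.26 between cells, -0.56 within MDA-MB-231, 4.24 within MCF-10A and -3.20 for MDA-MB-231 cells against MCF-10A exosomes. For miR-452 it gave -2.20, 1.57, -0.39, 3.31 and -1.96. Median-ratio scaling gave miR-224 0.32 between cells and 3.17 within MCF-10A, and miR-452 -1.66 in exosomes, 0.63 between cells and 2.24 within MCF-10A. Trimmed-mean (TMM) scaling gave miR-224 -3.16, 0.25 and 2.79 in exosomes, between cells and within MCF-10A. It gave miR-452 -1.75, 0.56, -0.08 and 1.86 in exosomes, between cells, within MDA-MB-231 and within MCF-10A. Outside the other-tissue lists, miR-224 was at -1.22 between cells and 1.54 within MCF-10A, and miR-452 at -0.91 and 0.61. Without miR-21, miR-224 was at 0.47 between cells, 3.01 within MCF-10A and -2.54 for MDA-MB-231 cells against MCF-10A exosomes, and miR-452 at -1.31 in exosomes and 0.78, 2.08 and -1.30 in the same 3. Each scaling shifts every name of a comparison by 1 amount, which sets these moves.

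Of 45 recomputed counts of names past 4-fold, 37 stayed within 1.5 times. Recovered reads without a pseudocount, which drops names at 0, left fewer names to count. There 244 of 505 became 117 of 374 in exosomes and 477 of 665 became 282 of 467 between cells. Within MDA-MB-231, 178 of 499 became 106 of 422, and within MCF-10A, 480 of 661 became 231 of 410. For MDA-MB-231 cells against MCF-10A exosomes, 221 of 482 became 138 of 393. A minimum of 50, which also leaves fewer names to count, gave 117 of 365 within MDA-MB-231. For MDA-MB-231 cells against MCF-10A exosomes it gave 142 of 352, and a pseudocount of 10 gave 144 of 482. Upper-quartile scaling moved the split of higher and lower names from 116 and 361 to 167 and 306 between cells, from 111 and 67 to 99 and 97 within MDA-MB-231, and from 102 and 378 to 169 and 311 within MCF-10A. Outside the other-tissue lists it was 66 and 407 between cells.

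With 1 library per group, counting intervals say nothing of the spread between cultures. A count of 0 allows 19.6 reads per 10000000 in MDA-MB-231 exosomes and 23.9 in MCF-10A exosomes, which limits the star arms and not the members.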
